A study of Mus musculus with 20 samples.

Results

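The genes described here serve the display of peptides by class I major histocompatibility complex (MHC) molecules. The 10 genes listed were Nlrc5, B2m, Tap1, Tap2, Tapbp, Psmb8, Psmb9, Psmb10, H2-K1 and H2-D1, of 19938 genes measured in all. Each gene was taken from the probe set that the array annotation pairs with that gene alone, and where a gene had several, the brightest on average was used. This gave values for 8 genes. H2-K1 and H2-D1 were dropped, since their 2 probe sets are annotated to both genes and to LOC547349.

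Expression was measured on 20 Affymetrix arrays of tumors that grew from LLC-1, a Lewis lung carcinoma cell line, implanted in C57Bl/6 mice, the strain the line comes from. Every tumor received an adenoviral vector, by 5 injections of 25 µl given 48 h apart with a load of 8 on the log10 scale. The 4 groups, with 5 arrays each, received the vector for IFNbeta, the vector for p19Arf, the p19Arf and IFNbeta genes together (p19Arf+IFNbeta), or, as the control, the vector for enhanced green fluorescent protein (eGFP). Interferon beta is a type I interferon that cells secrete on viral infection, and p19Arf, a product of the Cdkn2a gene, is a tumor suppressor that stabilises p53. The eGFP tumors therefore carried adenovirus and its injections too, and no tumor without a vector was analysed here. The sources used here do not give the promoter of the vector genes or the ages of the mice, and the labels number the tumors without saying how many mice they came from. The p-values below measure the spread between these tumor samples.

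Class I molecules carry fragments of a cell's own proteins to its surface, where CD8 T cells inspect them. Proteins are cut by the proteasome, the peptides are pumped into the endoplasmic reticulum by the TAP transporter, and they are loaded there onto a heavy chain paired with beta-2 microglobulin. Nlrc5 is a transactivator, induced by interferons, that is recruited to class I promoters through a module of neighbouring elements bound by RFX, CREB/ATF and NF-Y factors. Tumor cells often lower this pathway, and interferons raise it, so its level bears on how visible a tumor is to T cells.

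The promoters of B2m and of the divergent pair Tap1 and Psmb9 are shown because the correlations of these genes with Nlrc5 were unlike, as given further on. Those of H2-K1 and H2-D1, the class I heavy chains themselves, are shown because the module that Nlrc5 uses is best known from such genes and because their likeness bears on the shared probe sets. The sequences are RefSeq's upstream windows on build GRCm38.p6, where 8 of the 10 genes had an entry and Nlrc5 and Tap2 had none. They run 5′ to 3′ on the strand of the gene and end at the base before its start. B2m lies at chr2:122147437-122147686 on the plus strand, H2-K1 at chr17:34000348-34000597 on the minus strand and H2-D1 at chr17:35262844-35263093 on the plus strand. Tap1 and Psmb9 start in opposite directions on either side of 225 bases, and this stretch, chr17:34187331-34187555, is given on the plus strand, the strand of Tap1. Capitals mark matches on either strand. One motif is CCAAT, the core of the Y box that NF-Y binds, and another is TGACG, the core that CREB and ATF factors bind. The interferon response motif was searched in its forms GAANNGAAA and, with the gap one base later, GAAANNGAA. The matches marked do not overlap one another.
B2m: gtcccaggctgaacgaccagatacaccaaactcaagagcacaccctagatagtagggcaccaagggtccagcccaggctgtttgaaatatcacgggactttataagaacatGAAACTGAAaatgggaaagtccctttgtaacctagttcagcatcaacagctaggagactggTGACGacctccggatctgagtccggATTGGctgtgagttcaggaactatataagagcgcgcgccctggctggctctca
H2-K1: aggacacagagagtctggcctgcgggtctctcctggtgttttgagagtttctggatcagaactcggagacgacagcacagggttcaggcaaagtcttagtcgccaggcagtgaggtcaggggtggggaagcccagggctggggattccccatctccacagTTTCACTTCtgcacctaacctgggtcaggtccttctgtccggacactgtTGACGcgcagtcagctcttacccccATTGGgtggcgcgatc
H2-D1: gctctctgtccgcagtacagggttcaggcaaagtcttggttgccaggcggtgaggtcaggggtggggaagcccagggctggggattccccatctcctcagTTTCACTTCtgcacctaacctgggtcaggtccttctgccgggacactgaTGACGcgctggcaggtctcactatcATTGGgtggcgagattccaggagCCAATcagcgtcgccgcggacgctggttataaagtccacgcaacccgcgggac
Tap1 and Psmb9: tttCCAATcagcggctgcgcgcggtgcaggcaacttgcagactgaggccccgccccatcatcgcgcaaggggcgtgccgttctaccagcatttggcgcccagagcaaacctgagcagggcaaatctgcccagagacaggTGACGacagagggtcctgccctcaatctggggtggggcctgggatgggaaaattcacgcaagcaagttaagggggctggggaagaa

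Among the 250 bases upstream of each of 27025 RefSeq promoters, the CCAAT motif stood in 34.5% and the TGACG motif in 17.9%. The interferon response motif stood in 6.34% in the form GAANNGAAA and in 7.16% in the other form. The motifs were chosen with these sequences in view, so the matches are a description. B2m, H2-K1, H2-D1 and the stretch between Tap1 and Psmb9 each held both the CREB core and the Y box core. In B2m, H2-K1 and H2-D1 a Y box core on the minus strand followed the CREB core with 20 bases between them in each window. Between Tap1 and Psmb9 the Y box core lay at the Psmb9 end, with 131 bases between it and the CREB core. B2m, H2-K1 and H2-D1 also held an interferon response motif upstream of the CREB core, and no other window of the 8 did. The Tapbp window held 2 Y box cores and none of the other motifs. The Psmb8 window held 1 match to TTCNNNGAA, the letters of a gamma activated site, which stood in 7.18% of promoters. The Psmb10 window held none of the 5 motifs. Over the best local alignment of their windows, H2-K1 and H2-D1 were identical at 161 of 177 positions (91%).

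Over the whole series, 2 arrays of 1 group correlated at 0.951 to 0.994, and the median of an array lay between 7.49 and 7.61 on the log2 scale. Each array's log2 values had a standard deviation, here its spread, of 1.99 to 2.15. The array values of Ifnb1 and Cdkn2a, the mouse genes of the vector products, overlapped between each vector group and eGFP. Ifnb1 lay between 6.03 and 6.65 in IFNbeta tumors and between 5.81 and 6.40 in p19Arf+IFNbeta tumors, against 5.96 to 6.25 in eGFP tumors. Cdkn2a lay between 7.35 and 7.81 in p19Arf tumors and between 7.25 and 7.82 in p19Arf+IFNbeta tumors, against 7.36 to 7.54 in eGFP tumors. Whether these probe sets detect the vectors' transcripts was not tested. For the carcinoma label, the 6 keratin and adhesion genes Krt8, Krt18, Krt7, Krt19, Epcam and Cdh1 had values between 6.11 and 8.27. The deposited table has no detection call, so these values do not show whether the genes were expressed.

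Nlrc5 had its highest mean in the tumors that received both genes. Its log2 values, in the order of replicates 1 to 5, were 10.58, 10.73, 11.56, 10.90 and 11.05 in IFNbeta tumors, 11.10, 11.85, 11.10, 11.15 and 10.93 in p19Arf tumors, 11.34, 11.11, 11.82, 11.67 and 11.64 in p19Arf+IFNbeta tumors and 11.51, 10.50, 10.86, 10.51 and 10.82 in eGFP tumors. In the combination 3 arrays lay above all eGFP arrays, and the other two lay below eGFP replicate 1 and above the other 4 eGFP arrays. The group means were 10.96 ± 0.38 for IFNbeta, 11.23 ± 0.36 for p19Arf, 11.52 ± 0.28 for p19Arf+IFNbeta and 10.84 ± 0.41 for eGFP (SD, n = 5 each). Neighbouring groups in this order of means, from p19Arf+IFNbeta through p19Arf and IFNbeta to eGFP, differed by at most 0.29, beside within-group SDs of 0.28 to 0.41. Over all 20 arrays the SD of Nlrc5 was 0.43, larger than that of 96.7% of genes. B2m, by contrast, had an SD of 0.13, larger than that of 11.9% of genes. Its mean level was higher than that of 99.9% of genes, in a table whose highest value was 14.7. Whether that level bears on its small SD was not tested.

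The TAP transporter is a pair of proteins, Tap1 and Tap2. Tap1 measured 10.65, 10.91, 11.30, 10.88 and 11.20 in IFNbeta tumors, 10.92, 11.34, 11.08, 11.15 and 10.77 in p19Arf tumors, 11.30, 11.15, 11.39, 11.29 and 11.22 in p19Arf+IFNbeta tumors and 11.22, 10.69, 10.82, 10.64 and 10.92 in eGFP tumors. Tap2 measured 9.68, 9.82, 10.25, 9.63 and 9.95 in IFNbeta tumors, 9.85, 10.35, 10.15, 10.13 and 9.99 in p19Arf tumors, 10.26, 10.10, 10.26, 10.42 and 10.27 in p19Arf+IFNbeta tumors and 10.24, 9.73, 9.99, 9.70 and 9.93 in eGFP tumors. For both genes 4 of 5 combination arrays lay above all eGFP arrays, and eGFP replicate 1, IFNbeta replicate 3 and p19Arf replicate 2 were the highest arrays of their groups, as for Nlrc5. Tap1 averaged 10.99 ± 0.26 with IFNbeta, 11.05 ± 0.22 with p19Arf and 11.27 ± 0.09 with p19Arf+IFNbeta, against 10.86 ± 0.23 in eGFP tumors. Tap2 averaged 9.86 ± 0.25, 10.09 ± 0.19 and 10.26 ± 0.12 in the same order of vector groups, against 9.92 ± 0.22 in eGFP tumors. The SD of Tap1 within the combination was the smallest of its 4 groups, and so was that of Tap2.

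Psmb8, Psmb9 and Psmb10 are the catalytic subunits that replace their constitutive counterparts in the immunoproteasome, which cuts peptides suited to class I binding. Psmb8 measured 10.01, 10.57, 10.32, 10.30 and 10.59 in IFNbeta tumors, 10.42, 10.52, 10.55, 10.36 and 10.13 in p19Arf tumors, 10.60, 10.53, 10.71, 10.27 and 10.26 in p19Arf+IFNbeta tumors and 10.57, 10.04, 10.16, 9.91 and 10.04 in eGFP tumors. In eGFP tumors 4 of the 5 Psmb8 values lay between 9.91 and 10.16, and replicate 1 stood at 10.57, above all p19Arf arrays and within the ranges of IFNbeta and p19Arf+IFNbeta. Psmb9 measured 10.24, 10.58, 10.34, 10.43 and 10.72 in IFNbeta tumors, 10.57, 10.59, 10.49, 10.59 and 10.05 in p19Arf tumors, 10.62, 10.52, 10.66, 10.38 and 10.44 in p19Arf+IFNbeta tumors and 10.32, 10.24, 10.50, 10.26 and 10.29 in eGFP tumors. Its p19Arf replicate 5 was the lowest of all 20 arrays, while 3 arrays of p19Arf and 3 of the combination lay above all eGFP arrays. Psmb10 measured 10.43, 10.82, 10.50, 10.56 and 10.85 in IFNbeta tumors, 10.74, 10.52, 10.54, 10.58 and 10.18 in p19Arf tumors, 10.69, 10.65, 10.61, 10.35 and 10.56 in p19Arf+IFNbeta tumors and 10.42, 10.49, 10.68, 10.63 and 10.54 in eGFP tumors. Its 4 groups lay over one another, with the lowest array again p19Arf replicate 5. The group means of Psmb8 were 10.36 ± 0.24 for IFNbeta, 10.40 ± 0.17 for p19Arf, 10.47 ± 0.20 for p19Arf+IFNbeta and 10.14 ± 0.25 for eGFP. Those of Psmb9 were 10.46 ± 0.19, 10.46 ± 0.23 and 10.53 ± 0.12 in the same order of vector groups, and 10.32 ± 0.11 for eGFP. For Psmb10 they were 10.63 ± 0.19, 10.51 ± 0.20 and 10.57 ± 0.13, and 10.55 ± 0.10 for eGFP. The mean of every vector group was thus above eGFP for Psmb8 and Psmb9, by at most 0.33 on the log2 scale, and not for Psmb10.

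B2m encodes beta-2 microglobulin, the light chain that every classical class I molecule needs. B2m measured 13.53, 13.35, 13.37, 13.42 and 13.34 in IFNbeta tumors, 13.46, 12.89, 13.29, 13.38 and 13.48 in p19Arf tumors, 13.36, 13.46, 13.33, 13.26 and 13.31 in p19Arf+IFNbeta tumors and 13.42, 13.37, 13.41, 13.42 and 13.48 in eGFP tumors. Apart from p19Arf replicate 2, which was the lowest, the values lay between 13.26 and 13.53 in all groups. Tapbp encodes tapasin, which holds empty class I molecules at the TAP transporter. Tapbp measured 11.20, 11.35, 11.19, 11.38 and 11.64 in IFNbeta tumors, 11.38, 11.09, 11.35, 11.30 and 11.30 in p19Arf tumors, 11.33, 11.29, 11.16, 11.15 and 11.07 in p19Arf+IFNbeta tumors and 11.22, 11.34, 11.46, 11.36 and 11.54 in eGFP tumors. The combination had 3 arrays below all eGFP arrays and none above. The means of B2m were 13.40 ± 0.08 for IFNbeta, 13.30 ± 0.24 for p19Arf, 13.34 ± 0.07 for p19Arf+IFNbeta and 13.42 ± 0.04 for eGFP, and those of Tapbp 11.35 ± 0.18, 11.28 ± 0.11, 11.20 ± 0.11 and, for eGFP, 11.38 ± 0.12. For both genes the eGFP mean was the highest of the 4.

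**Figure D1:**
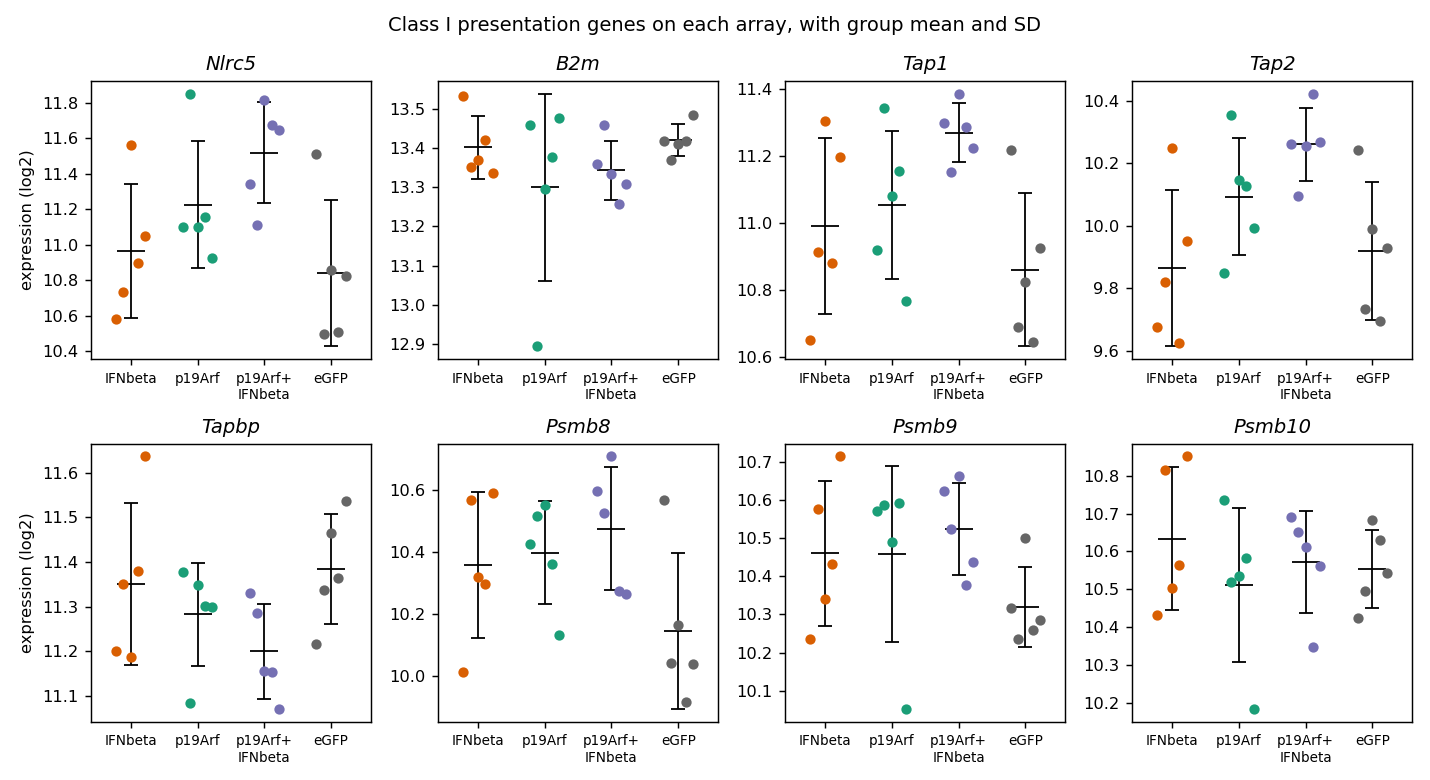
Log2 expression of 8 class I presentation genes (vertical axes, 1 panel a gene, each with its own range) on 20 arrays, grouped by vector along the horizontal axis. Points are arrays in the order of replicates 1 to 5, and the bars give the group mean and SD. Nlrc5, Tap1 and Tap2 have their highest mean in p19Arf+IFNbeta (11.52, 11.27 and 10.26), and eGFP replicate 1 lies above the other eGFP arrays for Nlrc5 and Psmb8.

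The combination was compared with eGFP to ask what both genes together changed in the tumor. Nlrc5 averaged 0.68 higher (SE 0.20, 95% interval 0.26 to 1.10), or 1.60-fold, Tap1 0.41 higher (SE 0.13), Tap2 0.34 higher (SE 0.12) and Psmb8 0.33 higher (SE 0.13), all on the log2 scale. Psmb9 averaged 0.21 higher (SE 0.11), Psmb10 0.02 higher (SE 0.11), B2m 0.08 lower (difference -0.08, SE 0.09) and Tapbp 0.18 lower (difference -0.18, SE 0.09). Limma gave adjusted p-values, over all 19938 genes, of 0.234 for Nlrc5, Tap1 and Tap2, 0.236 for Psmb8, 0.324 for Psmb9, 0.305 for Tapbp, 0.692 for B2m and 0.946 for Psmb10. None of the 8 genes passed the adjusted threshold of 0.05, as 0% of all genes did. At an unadjusted p under 0.05, Nlrc5, Tap1, Tap2 and Psmb8 were higher by limma and no member was lower, while 6.18% of all genes were higher and 11.4% lower. For none of the 8 genes did the combination lie wholly above or below eGFP, which 0.782% and 0.547% of all genes did. The 8 genes had a median difference of 0.27, with 6 of 8 above 0, beside a median of 0.02 over all genes, of which 55% were above 0.

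With eGFP replicate 1 left out, the Nlrc5 difference was 0.85, the highest of the differences with any 1 array left out, whose lowest was 0.59. Limma then called 84 of all 19938 genes instead of 0, none of them a member. With the arrays weighted by their quality, limma called 166 of all 19938 genes and 1 of the 8 members. This was Nlrc5, with a difference of 0.68 and an adjusted p of 0.0488. Its adjusted p by limma ran from 0.0488 to 0.773 over the alternatives other than those that left out 1 array. The highest value belonged to the fit with the array spread, the SD of its values, as a covariate, where the difference was 0.43 (SE 0.18). In that fit Tap1 differed by 0.29 (SE 0.12), Tap2 by 0.19 (SE 0.10), Psmb8 by 0.37 (SE 0.14) and Tapbp by -0.096 (SE 0.085). No eGFP array was among the 5 of lowest spread. Vector group and spread therefore cannot be fully told apart, in this comparison or in the others fitted with that covariate. The median over the 8 genes was 0.22 with the spread covariate and 0.38 after quantile normalization. After quantile normalization Nlrc5 differed by 0.80, Tap1 by 0.55, Tap2 by 0.45, Psmb8 by 0.44 and Tapbp by -0.048.

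In tumors given p19Arf alone, compared with eGFP to ask what that gene did by itself, the same genes had higher means by smaller amounts. Nlrc5 was 0.39 higher (SE 0.20, 1.31-fold), Psmb8 0.25 higher (SE 0.13), Tap1 0.19 higher (SE 0.13), Tap2 0.18 higher (SE 0.12) and Psmb9 0.14 higher (SE 0.11). Psmb10 differed by -0.04 (SE 0.11), Tapbp by -0.10 (SE 0.09) and B2m by -0.12 (SE 0.09). Limma's adjusted p-values lay between 0.661 and 0.891. No member passed, as 0% of all genes did, and none had an unadjusted p under 0.05, which 2.84% of genes had as higher and 4.4% as lower. No member lay wholly above eGFP (0.251% of genes did) or wholly below it (0.441%). The median over the 8 genes was 0.16, with 5 above 0, beside 0.02 over all genes, of which 54.4% were above 0. The B2m difference rested on p19Arf replicate 2 and was -0.018 without it. With that replicate left out Nlrc5 was 0.23 higher, and with eGFP replicate 1 left out it was 0.55 higher. With the array spread as a covariate Nlrc5 was 0.16 higher (SE 0.18), and the median over the 8 genes was 0.068. That median was 0.056 without the 5 arrays of lowest spread and 0.24 after quantile normalization.

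In tumors given IFNbeta alone, compared with eGFP to ask what the cytokine gene did by itself, no member differed from eGFP by more than 0.21. Psmb8 was 0.21 higher (SE 0.13), Psmb9 0.14 higher (SE 0.11), Tap1 0.13 higher (SE 0.13), Nlrc5 0.12 higher (SE 0.20) and Psmb10 0.08 higher (SE 0.11). B2m differed by -0.02 (SE 0.09), Tapbp by -0.03 (SE 0.09) and Tap2 by -0.05 (SE 0.12). Limma gave an adjusted p of 0.9998 for each. No member passed, as 0% of all genes did, and none had an unadjusted p under 0.05, beside 1.34% of genes as higher and 1.45% as lower. No member lay wholly above eGFP (0.552% of genes did) or wholly below it (0.346%). The median over the 8 genes was 0.10, with 5 above 0, beside -0.02 over all genes, of which 44.2% were above 0. That median was 0.029 without IFNbeta replicate 3, 0.16 without IFNbeta replicate 1, 0.051 without IFNbeta replicate 5, 0.052 without eGFP replicate 2, 0.058 without eGFP replicate 4 and 0.034 with array weights. Nlrc5 turned to -0.025 without IFNbeta replicate 3, its highest array in that group, and came to 0.29 without eGFP replicate 1. The 95% interval for Nlrc5 ran from -0.30 to 0.55, so these arrays leave room for a higher or a lower level.

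**Figure D2:**
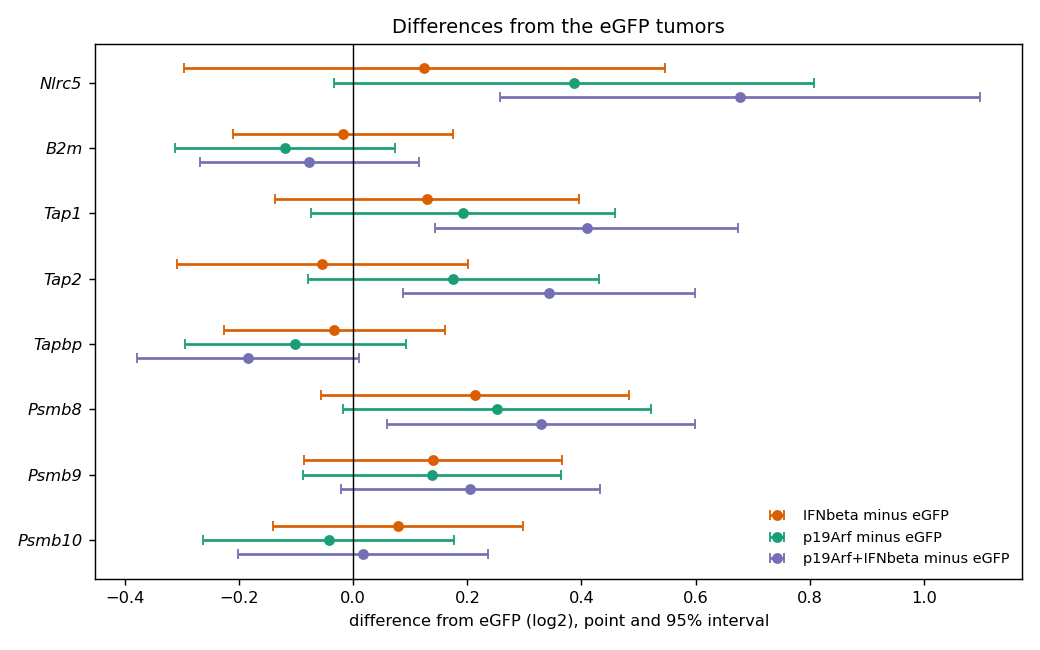
Difference from eGFP on the log2 scale (horizontal axis) for 8 genes (vertical axis) in tumors given IFNbeta, p19Arf or both. Points are limma's estimates over 20 arrays and bars their 95% intervals; the p19Arf+IFNbeta intervals of Nlrc5, Tap1, Tap2 and Psmb8 lie above 0, and no gene passed after adjustment over all genes.

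All 3 comparisons use the same eGFP arrays, so a high or low eGFP array moves them together. The samples are bulk tumor tissue, in which fewer cells of a type and less RNA per cell cannot be told apart.

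The combination was also set against each single vector, to ask what the second gene added. The labels give the same load of 8 on the log10 scale for every group, without saying whether it counts each vector or both together. The dose of each vector and the addition of the second gene therefore cannot be told apart, here or in the interaction below. Against IFNbeta alone, Nlrc5 had the largest positive difference of the 8 genes, 0.55 (SE 0.20, limma adjusted p = 0.152), and Tapbp the largest negative one, -0.15 (SE 0.09, adjusted p = 0.276). Of the 8 genes 5 had higher and 3 lower means, with a median of 0.09 beside 0.05 over all genes, of which 57.1% were higher. That median was 0.020 without IFNbeta replicate 1, 0.15 without IFNbeta replicate 5, 0.044 without p19Arf+IFNbeta replicate 3, 0.23 after quantile normalization and 0.049 with median centring. None passed, as 0% of all genes did. At an unadjusted p under 0.05 by limma 3 members were higher, Nlrc5, Tap1 and Tap2, beside 11.8% of all genes, and none was lower, beside 14%. No member lay wholly above IFNbeta (1.3% of genes did) or wholly below it (0.782%). This comparison turned on 1 array. Without IFNbeta replicate 3, the array with high Nlrc5, Tap1 and Tap2, limma called 2351 of all 19938 genes instead of 0. Of the 8 members it called 2, Nlrc5 (0.70, adjusted p = 0.0383) and Tap2 (0.49, adjusted p = 0.0377). With array weights limma called 1730 of all 19938 genes. The members among these were 3 of the 8, Nlrc5 (0.67, adjusted p = 0.0376), Tap2 (0.46, adjusted p = 0.0376) and Tap1 (0.37, adjusted p = 0.0486). Both sets of calls thus reached far beyond the members. Over the alternatives other than single arrays left out, limma's adjusted p ran from 0.0376 to 0.978 for Nlrc5 and Tap2 and from 0.0486 to 0.978 for Tap1. With the array spread as a covariate Nlrc5 differed by 0.27 (SE 0.18), with an adjusted p of 0.978 by limma.

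Against p19Arf alone, the combination had higher means for 7 of 8 genes, beside 46.9% of all genes, the largest for Nlrc5 at 0.29 (SE 0.20, limma adjusted p = 0.998), and the one lower mean was that of Tapbp at -0.08 (SE 0.09). The median was 0.07, beside -0.01 over all genes, and with 1 array left out it ran from 0.044 without p19Arf+IFNbeta replicate 1 to 0.12 without p19Arf+IFNbeta replicate 4. No member had an unadjusted p under 0.05, beside 1.83% of genes as higher and 1.24% as lower. No member passed the adjusted threshold, as 0% of all genes did, and none lay wholly above p19Arf (0.16% of genes did) or below it (0.0953%). The interaction asks whether the difference made by p19Arf depended on IFNbeta, as the combination minus IFNbeta less the difference of p19Arf from eGFP. It was largest for Tap2 at 0.22 (SE 0.17) and most negative for Psmb8 at -0.14 (SE 0.18), each with a limma adjusted p of 1. No member passed (0% of genes) or had an unadjusted p under 0.05 by limma (0.813% of genes were above 0 and 0.492% below at that level), and 4 of 8 lay above 0, beside 52.2% of all genes. Over both groups with IFNbeta against both without it, 10 arrays each, 7 of 8 genes had higher means, beside 41.5% of all genes. Nlrc5 led at 0.21 (SE 0.14, limma adjusted p = 0.959) and Tapbp was lowest at -0.06 (SE 0.07). No member passed (0% of genes) or reached an unadjusted p of 0.05 by limma, beside 2.77% of genes as higher and 2.15% as lower.

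Nlrc5 was measured by 19 probe sets annotated to it alone. In the combination 18 of the 19 had a higher mean than in eGFP, with a median difference of 0.53 and a range of -0.10 to 0.97. In p19Arf tumors 17 of 19 were higher than in eGFP, with a median of 0.22 and a range of -0.24 to 0.50. In IFNbeta tumors all 19 were higher, with a median of 0.16 and a range of 0.04 to 0.29. Probe sets of 1 gene share their arrays and are no replicates, so these counts are a description. Across the 20 arrays 15 of the 18 others correlated with the one used at r above 0.5, and the median r was 0.917. Of the others, probe set 10574139 correlated below 0, with r = -0.166, and averaged 8.87 in the combination against 8.97 in eGFP. Probe set 10574157 had the largest difference, with 11.38 in the combination against 10.41 in eGFP. At 1 of the 19 all 5 combination arrays lay above all eGFP arrays, as 0.782% of all genes did at 1 probe set each. It was 10574143, with 8.71 in the combination against 8.23 in eGFP, the dimmest of the 19 in every group.

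**Figure D3:**
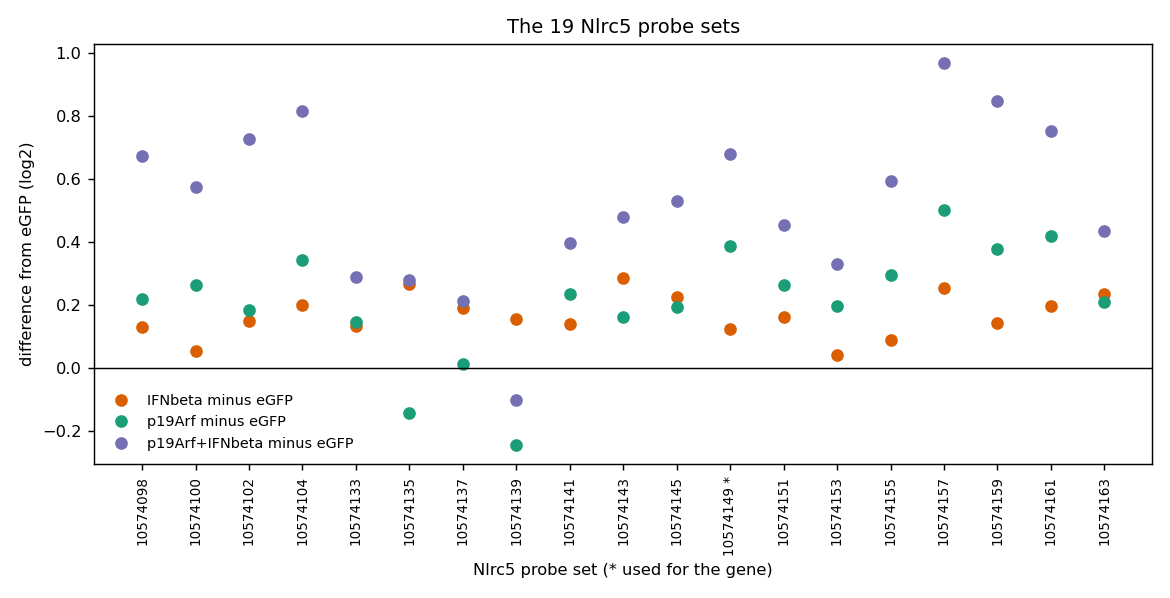
Difference from eGFP on the log2 scale (vertical axis) at each of 19 Nlrc5 probe sets (horizontal axis, by identifier; the asterisk marks the one used for the gene), with 1 point for each vector group. The p19Arf+IFNbeta points run from -0.10 to 0.97 and lie above 0 at 18 of 19 probe sets.

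Across the 20 arrays Nlrc5 followed the TAP genes and Irf1, a transcription factor that interferon gamma and type I interferons induce. Permutation tests, 2-sided and adjusted over the 11 relations computed, gave r = 0.921 with Tap1 (Spearman 0.928), 0.902 with Tap2 (Spearman 0.914) and 0.850 with Irf1 (Spearman 0.812). Each had a permutation p of 1e-05, the smallest that 100000 permutations can give, and an adjusted p of 3.67e-05. Without the 2 arrays farthest from the median Nlrc5 level, r was 0.905, 0.901 and 0.790 for these genes in the same order. For deviations from the group means, which leave out the differences between vectors, r was 0.885, 0.864 and 0.825. The relations thus held among tumors that received the same vector.

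The remaining members had lower or negative correlations with Nlrc5 in the deposited values. Psmb8 had r = 0.602 (Spearman 0.535, adjusted permutation p = 0.00916), Psmb9 r = 0.398 (Spearman 0.462, adjusted p = 0.101) and Psmb10 r = -0.137 (Spearman -0.153, adjusted p = 0.568). B2m had r = -0.599 (Spearman -0.580, adjusted permutation p = 0.00279) and Tapbp r = -0.621 (Spearman -0.692, adjusted p = 0.00572). Ciita, the class II counterpart of Nlrc5, had r = 0.516 (Spearman 0.477, adjusted permutation p = 0.0289), and Ifng, the gene for interferon gamma, r = -0.171 (Spearman -0.135, adjusted p = 0.519). With the 2 arrays of most extreme Nlrc5 level left out, r was 0.510 for Psmb8, -0.519 for B2m and -0.506 for Tapbp, each with an adjusted permutation p of 0.0518, and 0.377 for Ciita (adjusted p = 0.171), so these 4 no longer passed the threshold. For deviations from the group means B2m had r = -0.588 with an adjusted permutation p of 0.0115. Psmb8 (r = 0.469, adjusted permutation p = 0.0688), Tapbp (r = -0.452, adjusted p = 0.0713) and Ciita (r = 0.401, adjusted p = 0.109) did not pass there. Quantile normalization, which gives every array the same distribution of values, changed the relations of these genes. After it Psmb8 had r = 0.784 (adjusted permutation p = 0.000264) and Psmb9, which had not passed before, r = 0.731 (adjusted p = 0.000513). B2m then had r = 0.041 (adjusted permutation p = 0.898), Tapbp r = -0.032 (adjusted p = 0.898) and Psmb10 r = 0.43 (adjusted p = 0.0813), while Tap1 had r = 0.963 and Tap2 r = 0.925.

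Nlrc5 also moved with the spread of the array. The arrays with the smallest spread had high Nlrc5 (r = -0.715, Spearman -0.764, adjusted permutation p = 0.00124, r = -0.722 without the 2 farthest arrays and -0.621 for deviations from group means). Quantile normalization of Nlrc5 did not remove this relation with the spread of the deposited values (r = -0.783, adjusted permutation p = 0.00011). In a second family of 8 relations, each member with the spread, Tap2 had r = -0.769 (Spearman -0.817, adjusted permutation p = 0.00096), Tap1 r = -0.585 (Spearman -0.632, adjusted p = 0.0141), Tapbp r = 0.670 (Spearman 0.728, adjusted p = 0.00248) and Psmb10 r = 0.530 (Spearman 0.535, adjusted p = 0.0247). Without the 2 arrays of most extreme spread, r was -0.777 for Tap2, -0.575 for Tap1, 0.741 for Tapbp and 0.525 for Psmb10. B2m (r = 0.392, adjusted permutation p = 0.108), Psmb8 (r = -0.0987, adjusted p = 0.772) and Psmb9 (r = 0.0476, adjusted p = 0.843) had no such relation past the threshold. The 5 arrays of smallest spread were replicates 4 and 5 of p19Arf+IFNbeta, replicates 2 and 4 of p19Arf and replicate 3 of IFNbeta, with no eGFP array among them. Their Nlrc5 values ranked between 1 and 8 from the highest.

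**Figure D4:**
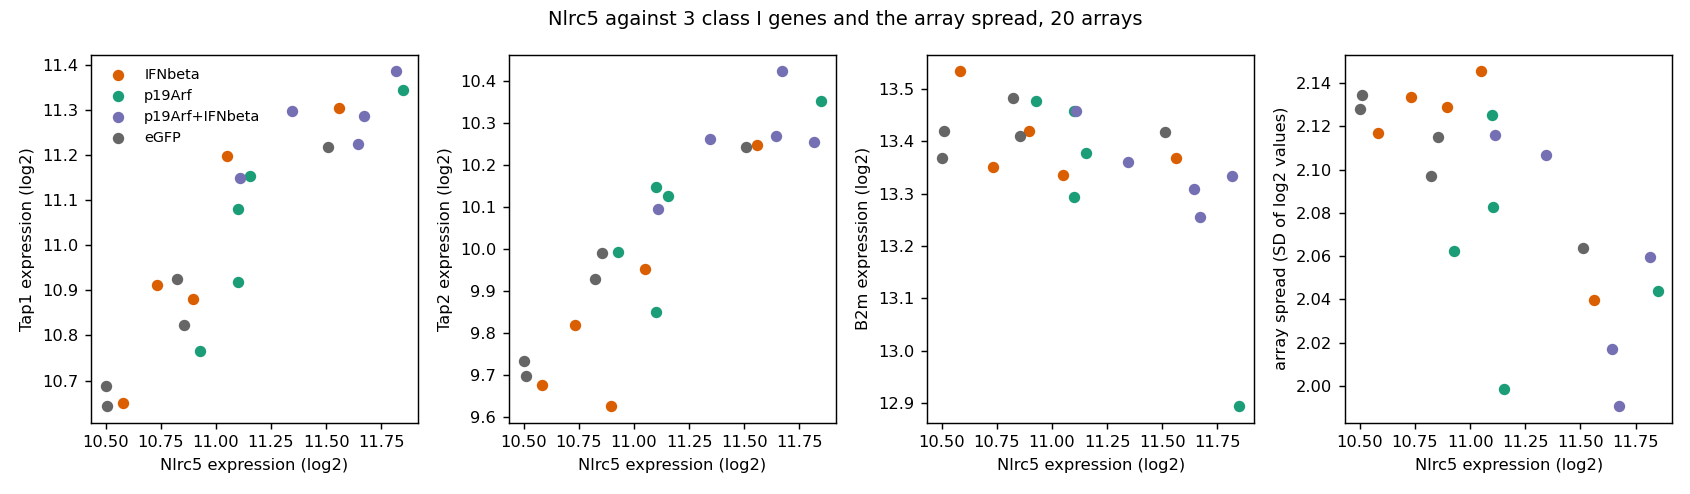
Nlrc5 log2 expression (horizontal axes) against the log2 expression of Tap1, Tap2 and B2m and against the array spread (SD of log2 values), with 1 point for each of 20 arrays, coloured by vector group. Tap1 and Tap2 climb with Nlrc5 in all groups (r = 0.921 and 0.902), B2m does not (r = -0.599, with p19Arf replicate 2 far below the rest), and the spread falls with Nlrc5 (r = -0.715).

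Of all other genes, those whose levels followed Nlrc5 most closely over the 20 arrays were Slc39a7 (r = 0.932), Rab44 (r = 0.931), Nbeal2 (r = 0.927), Uba7 (r = 0.922) and Bcl2l1 (r = 0.921). Slc39a7 is a zinc transporter, Uba7 the enzyme that activates the ubiquitin-like Isg15, and Bcl2l1 an inhibitor of apoptosis. Each of these 5 also correlated with the array spread, at r between -0.81 and -0.63. Among all genes Tap1 ranked 6 and Tap2 27 in likeness to Nlrc5. For deviations from the group means the closest were H2-Q5 (r = 0.930), H2-T10 (r = 0.916), Slc39a7 (r = 0.909), Rab44 (r = 0.903) and Tedc1 (r = 0.900). H2-Q5 and H2-T10 are nonclassical class I genes, and probes of this family can share sequence with its other members. Among the other members, Tap1 and Tap2 correlated at 0.880, Psmb8 and Psmb9 at 0.772, and Psmb9 and Psmb10 at 0.772. Psmb9, Tap1, Psmb8 and Tap2 are neighbours on chromosome 17 in this order, in the RefSeq annotation, while Nlrc5 and Psmb10 lie on chromosome 8 and B2m on chromosome 2.

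The rest of the pathway was read from further gene lists, none of whose genes passed the adjusted threshold by limma in a comparison with eGFP. Of 16 other class I genes 9 were measured, and in the combination 7 had higher and 2 lower means than in eGFP, beside 55% of all genes with a higher mean, with a median of 0.13. At an unadjusted p under 0.05 by limma, 3 of the 9 were higher, beside 6.18% of all genes, and 1, Mr1, was lower, beside 11.4%. H2-T10 averaged 8.90 ± 0.31 in the combination against 8.40 ± 0.26 in eGFP, H2-T24 8.98 ± 0.27 against 8.53 ± 0.28, and H2-Q4 10.61 ± 0.20 against 10.26 ± 0.21. Mr1, which presents microbial vitamin metabolites, averaged 8.47 ± 0.32 against 9.02 ± 0.49. The median over these genes was 0.10 in p19Arf and 0.07 in IFNbeta tumors, and H2-T24 was the one gene of the list with an unadjusted p under 0.05 in either (difference 0.48 in IFNbeta, limma adjusted p = 0.9998).

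The constitutive proteasome had mostly lower means in the combination. All 14 of its core genes were measured, and 12 had a lower and 2 a higher mean in the combination than in eGFP, beside 55% of all genes with a higher mean, with a median of -0.23. The mean of the 14 genes on an array ran from 10.09 to 10.99 in the combination and from 10.65 to 10.95 in eGFP, so the groups overlapped. Its dependence on the array spread was not tested. Psma6 (difference -0.48, SE 0.19) and Psma4 (difference -0.48, SE 0.23) had an unadjusted p under 0.05 by limma, 2 of 14 genes beside 11.4% of all genes as lower, a share near that of the whole array. The medians were -0.06 in p19Arf and 0.00 in IFNbeta tumors. Of 15 measured genes for other peptide supply and loading steps, 12 had a lower and 3 a higher mean in the combination, with a median of -0.15. Their mean on an array ran from 10.43 to 10.96 in the combination and from 10.76 to 10.93 in eGFP. The peptidase Tpp2 (difference -0.39, SE 0.14) and the proteasome activator gene Psme3 (difference -0.41, SE 0.16) had an unadjusted p under 0.05 by limma, 2 of 15 genes and again near the 11.4% of all genes. Their medians were -0.06 in p19Arf and 0.01 in IFNbeta tumors. All these medians stand beside 0.02, 0.02 and -0.02 over all genes in the combination, p19Arf and IFNbeta.

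Of 21 measured genes for class I promoter factors and interferon signalling, 7 had higher and 14 lower means in the combination than in eGFP, with a median of -0.04. At an unadjusted p under 0.05 by limma 2 were higher and 2 lower, beside 6.18% and 11.4% of all genes. Irf1 averaged 11.08 ± 0.12 in the combination against 10.75 ± 0.16 in eGFP (difference 0.33, SE 0.11, limma adjusted p = 0.234), and 4 of 5 combination arrays lay above all eGFP arrays. In the single-vector groups Irf1 averaged 10.76 ± 0.16 with IFNbeta and 10.78 ± 0.26 with p19Arf. Irf8 differed by 0.26 (SE 0.12). The NF-Y subunit genes Nfyc and Nfya differed by -0.47 (SE 0.17) and -0.27 (SE 0.11). The medians of this list were -0.04 in p19Arf and 0.03 in IFNbeta tumors.

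The type I interferon stimulated genes had another order of groups than Nlrc5 and the TAP genes. All 23 measured had a higher mean in IFNbeta tumors than in eGFP, beside 44.2% of all genes, with a median of 0.38. At an unadjusted p under 0.05 by limma 20 of the 23 were higher, beside 1.34% of all genes. This list, like the others, was chosen with earlier results of these data known, so its counts are a description. Trim30a, which had the smallest unadjusted p of the list, averaged 11.25 ± 0.25 in IFNbeta tumors against 10.84 ± 0.09 in eGFP (difference 0.42, SE 0.11). Usp18, which removes Isg15 from proteins and damps interferon signalling, averaged 10.47 ± 0.35 in IFNbeta tumors against 9.88 ± 0.21 in eGFP (difference 0.59, SE 0.17). In the combination 13 of 23 had a higher mean than in eGFP, beside 55% of all genes, with a median of 0.05, and 2, Zbp1 and Oas2, were higher at an unadjusted p under 0.05, beside 6.18%. In p19Arf 4 of 23 had a higher mean, beside 54.4% of all genes, with a median of -0.03. The combination had lower means than IFNbeta for all 23, where 57.1% of all genes had higher means, with a median of -0.35, while Nlrc5 was 0.55 higher there. In that comparison the dose of the IFNbeta vector cannot be told apart from the addition of p19Arf, as given above. The mean of the list on an array averaged 10.07 ± 0.30 with IFNbeta, 9.57 ± 0.26 with p19Arf and 9.69 ± 0.15 with both, against 9.64 ± 0.06 in eGFP.

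**Figure D5:**
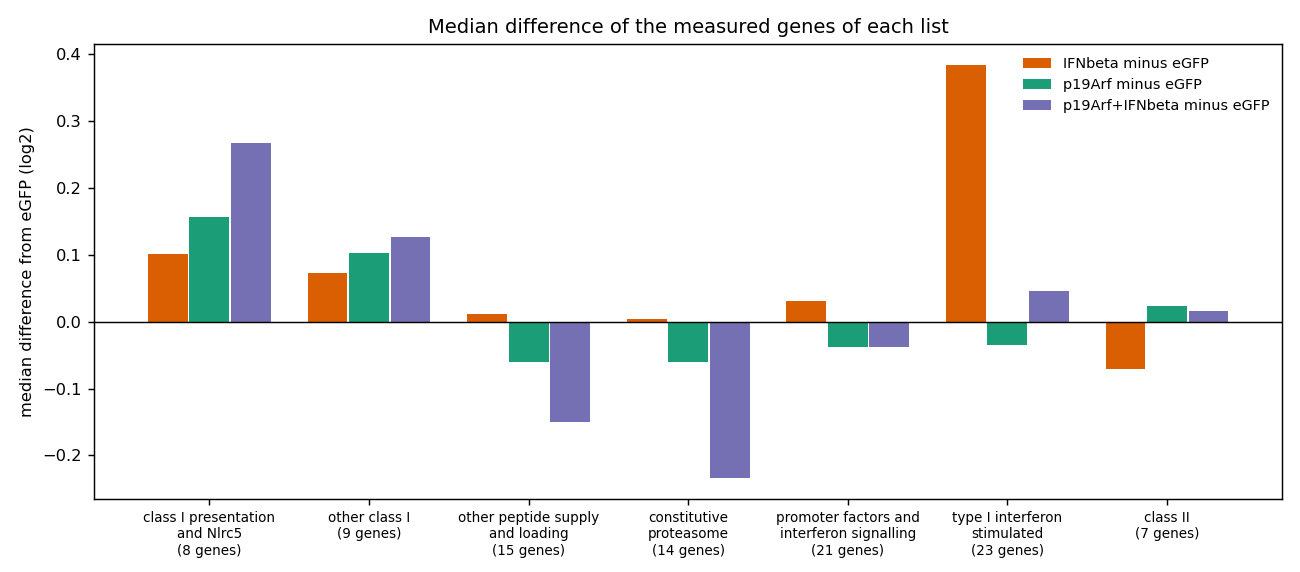
Median difference from eGFP on the log2 scale (vertical axis) over the measured genes of 7 lists (horizontal axis, with the number of genes), with 1 bar for each vector group. The class I presentation list runs 0.10, 0.16 and 0.27 for IFNbeta, p19Arf and p19Arf+IFNbeta, the constitutive proteasome reaches -0.23 in p19Arf+IFNbeta, and the interferon stimulated genes reach 0.38 in IFNbeta.

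Markers of other cell types were read beside these genes. Of 7 measured T cell genes 6 had a higher mean in the combination than in eGFP, beside 55% of all genes, and 4 were higher at an unadjusted p under 0.05 by limma, beside 6.18%. Their median difference was 0.31, and their mean level on an array ran from 7.94 to 8.72 in the combination against 7.75 to 8.07 in eGFP. The T cell genes also had mostly higher means in the single-vector groups. With IFNbeta 6 of 7 were higher (median 0.11), beside 44.2% of all genes, and with p19Arf 5 of 7 (median 0.10), beside 54.4%. All 6 skeletal muscle genes had a higher mean in each vector group than in eGFP, beside 44.2% of all genes with IFNbeta, 54.4% with p19Arf and 55% with both. Their median differences were 0.86 with IFNbeta, 0.55 with p19Arf and 0.91 with both. At an unadjusted p under 0.05 by limma 4, 0 and 5 of the 6 were higher in these groups, beside 1.34%, 2.84% and 6.18% of all genes. The mean level of the muscle genes ran from 7.51 to 9.53 with IFNbeta, 7.54 to 9.04 with p19Arf and 7.59 to 9.34 with both, against 7.47 to 8.20 in eGFP. The mean of 8 NK and cytotoxic cell genes ran from 7.25 to 8.15 in the combination against 7.26 to 7.52 in eGFP, and that of 7 macrophage and monocyte genes from 9.66 to 10.36 against 9.92 to 10.36. Of the NK and cytotoxic cell genes 5 had a higher and 3 a lower mean in the combination. At an unadjusted p under 0.05 by limma 1 of them was higher, beside 6.18% of all genes. Of the macrophage and monocyte genes 3 had a higher and 4 a lower mean. At that level 2 of these were lower, beside 11.4%. The part of these cell type markers in the differences of the class I genes was not tested.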

How the data were processed

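Total RNA of 20 tumors was hybridised to 1-colour Affymetrix arrays, with 5 tumors a group as the labels give them. The authors deposited 1 table of 35556 probe sets, taken here as log2 values from their range of 2.33 to 14.7, since no header names the base. The submitters' processing notes name GCOS and Affymetrix Expression Console, without versions. The sources used here do not state how probe sets were summarised or background corrected, and no normalization was added. The platform annotation, with symbols updated to the RefSeq table of GRCm38.p6, paired 21789 probe sets with 1 symbol, 1621 with several and listed none for 12146.

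Limma 3.58.1 in R 4.3.3 fitted 4 group means to all 20 arrays with no filter on low values, moderated the variances with eBayes, and tested 7 contrasts, 2-sided. P-values were adjusted by Benjamini-Hochberg over 19938 genes in each contrast, with a threshold of 0.05. Correlations and their permutation tests (100000 permutations) used Python 3.11.15 with numpy 2.4.6. The fit was tested on simulated data with independent noise for each gene and changes larger than any member difference given here. That test therefore does not cover differences of the size seen here, or variation that genes of an array share. Precision is limited by the number of arrays.

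All measured members were named in comparisons with eGFP, and elsewhere the members with the largest positive and negative difference. From each further list up to 4 genes with the smallest unadjusted p were named. The 5 genes most like Nlrc5 were named by r. The members and lists were chosen with earlier results of these data known. H2-K1 and H2-D1 had no single-symbol probe set, and the family of Nlrc5 relations tested here held 11. Alternatives covered array weights, quantile normalization, median centring, array spread as a covariate, variance moderation, the probe set, a filter on dim genes, the replicate number as a block, and arrays left out.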

Additional observations from a re-analysis of the deposited data

Results flagged for a closer look

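Within the 5 arrays of a group, 3 of 32 gene and group combinations had an array set far apart from the other 4. Chance alone sets about 1 in 20 groups this far apart. All 3 were in the p19Arf group. Nlrc5 stood at 11.85 in replicate 2, while its other 4 p19Arf arrays lay between 10.93 and 11.15. Tapbp stood at 11.09 in the same replicate, while the others lay between 11.30 and 11.38. Psmb9 stood at 10.05 in replicate 5, while the others lay between 10.49 and 10.59.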

How the results depend on the processing

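Over the 24 differences of members from eGFP, 720 values under alternatives left 702 with their direction and side of the threshold, 17 with the other sign and 1, Nlrc5 in the combination with array weights (0.68), past the threshold. Of 19938 genes, limma with array weights called 5 in IFNbeta against eGFP and 166 in the combination against eGFP (1 of 8 members). It called 1730 in the combination against IFNbeta (3 of 8 members) and 12 for the mean IFNbeta effect. Without weights limma called 0 in each. Without the 5 arrays of lowest spread it called 1 and 3 genes in the comparisons of IFNbeta and of the combination with eGFP, and the median member difference of the combination from p19Arf was 0.22, against 0.07. In the combination against IFNbeta, median centring and leaving out genes below the median level each gave 1 gene. With 1 array left out, that comparison had 0 to 2351 genes and 0 to 2 members, both highest without IFNbeta replicate 3, and the combination against eGFP had 0 to 84 genes, highest without eGFP replicate 1. The replicate number as a block changed no call, and the median member difference of the combination from eGFP was 0.27 with it. Over 30 pairs of arrays with the same number, deviations from group means correlated at -0.62 to 0.66 (median -0.05). The median for pairs with different numbers was 0.00095. These values do not show that equal numbers pair the tumors, and with so wide a range they cannot exclude it. The labels name no pairing. For IFNbeta against eGFP, the signs turned for Nlrc5 (-0.025) and Tapbp (0.0079) without the 5 arrays of lowest spread and for B2m with quantile normalization (0.016). With 1 array left out, Nlrc5 ran from -0.025 to 0.29, Tap2 from -0.15 to 0.027 and Tapbp from -0.10 to 0.0079. Psmb10 turned in p19Arf against eGFP with quantile normalization (0.049) and with the spread covariate (0.046) and ran from -0.10 to 0.039 with 1 array left out. In the combination against eGFP it turned with median centring (-0.020) and ran from -0.015 to 0.074 with 1 array left out, and B2m turned with quantile normalization (0.058). Past the threshold were 8 of the 11 relations of Nlrc5, against 4 without the 2 farthest arrays and 5 for deviations from group means. Quantile normalization turned r with B2m (0.041) and Psmb10 (0.43), and Psmb9 passed with it (r = 0.731). Tap1, Tap2, Psmb8, Irf1, Ciita and the array spread also passed with quantile normalization. B2m, Tapbp, Psmb10 and Ifng did not. The causes of these changes were not tested. The table has no background estimate, so the limit that signal over background sets is unknown.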

Other observations

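The class II genes were read from the same arrays. All 7 measured of 8 had a lower mean in IFNbeta tumors than in eGFP, beside 44.2% of all genes with a higher mean, with a median of -0.07, and none had an unadjusted p under 0.05 by limma. In the combination 5 of 7 had a higher mean than in eGFP, beside 55% of all genes, and H2-Eb1 differed by 0.33 (SE 0.14, limma adjusted p = 0.242). In p19Arf tumors 4 of 7 had a higher mean, beside 54.4%, with a median of 0.02.

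The other marker lists gave these values. The mean of 8 dendritic cell genes on an array averaged 7.90 ± 0.07 with IFNbeta, 7.84 ± 0.05 with p19Arf and 7.83 ± 0.06 with both, against 7.85 ± 0.11 in eGFP (SD, n = 5 each). For 5 B cell genes it averaged 6.77 ± 0.05, 7.01 ± 0.64 and 6.77 ± 0.10 in these vector groups, against 6.93 ± 0.35 in eGFP. For 6 endothelial genes it averaged 8.46 ± 0.07, 8.12 ± 0.16 and 8.30 ± 0.14, against 8.36 ± 0.17 in eGFP. For 6 skin epidermis genes it averaged 6.99 ± 1.31, 6.56 ± 0.11 and 6.55 ± 0.12, against 6.75 ± 0.36 in eGFP, and the highest array, at 9.33, was in the IFNbeta group. For the 6 keratin and adhesion genes of epithelium it averaged 7.25 ± 0.15, 7.32 ± 0.11 and 7.34 ± 0.22, against 7.25 ± 0.11 in eGFP.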
